A study of Mus musculus with 6 samples.

Results

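The primary cilium genes described here are 48 mouse genes for intraflagellar transport (IFT), the BBSome, the EvC zone, the transition zone and the traffic of ciliary receptors. They were taken from a list by name, and 45 of the 48 could be measured, out of 22180 genes on Affymetrix whole-transcript arrays. Arl13b, Inpp5e and Tctn1 had no feature assigned to 1 gene alone and were left out. Each gene was read from 1 array feature, the one with the highest mean over the 6 arrays.

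The arrays held RNA of 6 medulloblastomas, tumours of the cerebellum, with 1 array per tumour. In the knockout group (3 tumours, genotype Math1Cre::CrebbpFl/FlSmoM2Fl/+) Crebbp, the gene of a histone acetyltransferase, was deleted together with the activation of SmoM2, an active form of the Hedgehog transducer Smoothened. In the wild type group (3 tumours, genotype Math1Cre::SmoM2Fl/+) Crebbp was intact, so that both groups carried SmoM2 and the Math1CreERT2 recombinase. Recombination was induced with 1 mg tamoxifen at postnatal day 5 in every animal, and grown tumours were taken at postnatal day 60. The age label, also day 5, was read as the day of induction. The Math1 promoter drives the recombinase in granule neuron progenitors, so other cells in the tumour tissue keep Crebbp and lack SmoM2. Whether tumours within a group had separate litters or animals as their source is not labelled, and p-values measure the spread between these samples alone.

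The primary cilium is a single antenna of the cell surface, built on a basal body and closed off at its base by the transition zone. IFT-B trains carry cargo toward the tip with kinesin-2, IFT-A trains carry it back with dynein-2, and the BBSome removes membrane proteins. Vertebrate Hedgehog signalling runs through it: the receptor Ptch1 leaves the cilium when ligand binds, Smoothened enters, and GLI factors are processed there. The EvC zone, just above the transition zone, is where Smoothened meets the Evc-Evc2 complex. In mice, SmoM2 depends on cilia to form medulloblastoma.

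Some promoters of these genes held a sequence motif that the list did not use. RefSeq promoter windows of build GRCm38.p6, from 250 bases before to 50 after the annotated start, were at hand for 41 of the 48 genes. The X-box, the motif of RFX factors that switch on cilium genes, was searched as GTNNCCNNGGNNAC, which reads the same on both strands. It was found in 10 of the 41 genes (24.4%), against 2.16% of 27025 genes with a window. The matches are shown because the motif was found in a larger share of the cilium genes than of all genes, while 31 of the 41 windows had none. The motif is in capitals, in windows of at most 30 bases on the gene's strand.
Bbs7, chr3:36613489-36613518, minus strand: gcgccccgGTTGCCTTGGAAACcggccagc
Wdr19, chr5:65199654-65199683, plus strand: tttgcacgGTCTCCTGGGTGACgagaacgc
Tctn1, chr5:122264411-122264432, minus strand: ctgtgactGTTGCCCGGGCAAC
Tctn2, chr5:124598679-124598708, plus strand: gattggagGTTACCATGGCTACtggtcctc
Ift22, chr5:136908079-136908108, plus strand: ctgtcaggGTTTCCTGGGCTACtgcgcagc
Ift22, chr5:136908109-136908138, plus strand: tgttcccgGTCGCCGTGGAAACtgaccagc
Tmem231, chr8:111933781-111933810, minus strand: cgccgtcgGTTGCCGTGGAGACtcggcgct
Bbs4, chr9:59353464-59353493, minus strand: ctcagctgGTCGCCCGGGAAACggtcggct
Mks1, chr11:87853183-87853212, plus strand: gcgtctccGTTGCCAGGGGAACgaggcacc
Ift57, chr16:49699199-49699228, plus strand: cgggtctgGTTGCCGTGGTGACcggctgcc
Bbs1, chr19:4906605-4906634, minus strand: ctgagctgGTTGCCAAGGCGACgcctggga

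The cAMP response element, the site of the CREB factors that Crebbp was first known to bind, was searched as TGACGTCA, which also reads the same on both strands. It was found in 2 of the 41 genes (4.88%), Ift57 and Mkks, against 2.03% of all genes with a window. The GLI site, searched as GACCACCCA on both strands, was found in 0 of the 41 genes, against 0.289% of all. No 2 of these matches overlapped. Ift57 was the gene with both an X-box and a cAMP response element, and its 250 bases before the start are shown with both in capitals (chr16:49699044-49699293, plus strand).
Ift57: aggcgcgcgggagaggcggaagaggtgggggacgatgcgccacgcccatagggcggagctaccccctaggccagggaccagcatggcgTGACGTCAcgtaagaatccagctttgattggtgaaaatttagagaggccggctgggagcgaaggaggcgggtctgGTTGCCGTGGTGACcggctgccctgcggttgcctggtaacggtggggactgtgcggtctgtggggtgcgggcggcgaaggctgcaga

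**Figure D1:**
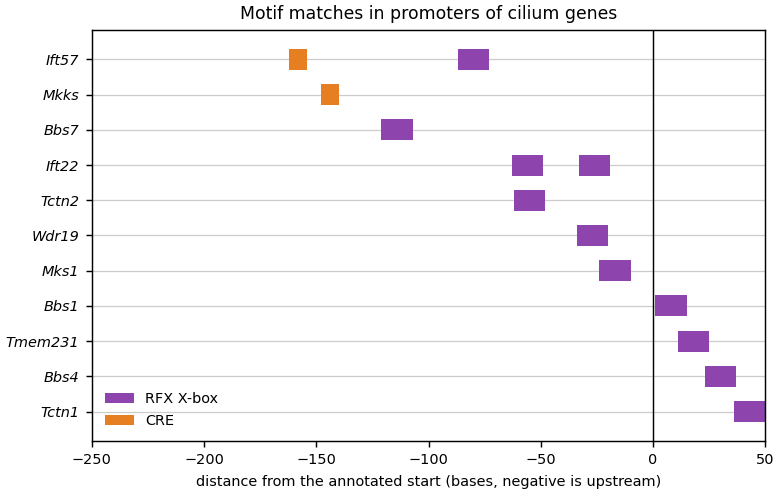
Position of X-box (purple) and cAMP response element (CRE, orange) matches in the promoter windows of 11 cilium genes, in bases from the annotated start, where negative is upstream. The X-box matches lie between 121 bases before (Bbs7) and 49 bases after (Tctn1) the start, and Ift22 has 2.

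Before the results, 3 properties of the arrays bear on all of them. The targeted gene Crebbp had log2 levels of 11.20 to 11.34 in knockout tumours and 11.70 to 11.80 in wild type tumours, without overlap (log2 change -0.50, SE 0.09, limma adjusted p = 0.0948), and the labels do not name the exons that were removed. Xist lay at 12.26 to 12.45 in knockout and 5.13 to 5.74 in wild type tumours, and the Y-linked Kdm5d at 4.59 to 4.75 and 9.32 to 9.37, so the knockout arrays carried the female and the wild type arrays the male pattern. Sex and genotype therefore cannot be told apart in any comparison below. The defining gene of the tumour's lineage, Atoh1, was high in all arrays, at 10.93 to 11.56 in knockout and 11.54 to 11.64 in wild type tumours. Levels are given on the log2 scale of robust multi-array averaging (RMA), on which 1 unit is a doubling. Such levels are compared within a gene and not between genes.

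Ttc23 was the one measured gene of the list with a limma adjusted p under 0.05. It encodes a tetratricopeptide repeat protein placed at the EvC zone in cultured mouse cells. Its log2 levels were 7.77, 7.52 and 7.40 in knockout tumours and 6.10, 6.33 and 6.18 in wild type tumours. The lowest knockout value stood clear of the highest wild type value. The gene rose by 1.36 on the log2 scale (SE 0.12, 95% interval 1.08 to 1.64, limma adjusted p = 0.0121 over all genes), a 2.56-fold rise (n = 3 each). It was 1 of 45 cilium genes called higher, where 0.126% of all genes were called higher and 0.207% in either direction. The list was drawn up with this rise known, so the count says nothing of cilium genes as a group. The call was lost on leaving out knockout replicate 3 (limma adjusted p = 0.0638) or wild type replicate 1 (0.0738) and with the replicate number as a block (0.0683), while the change itself stayed between 1.25 and 1.44 on leaving out each array in turn.

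**Figure D2:**
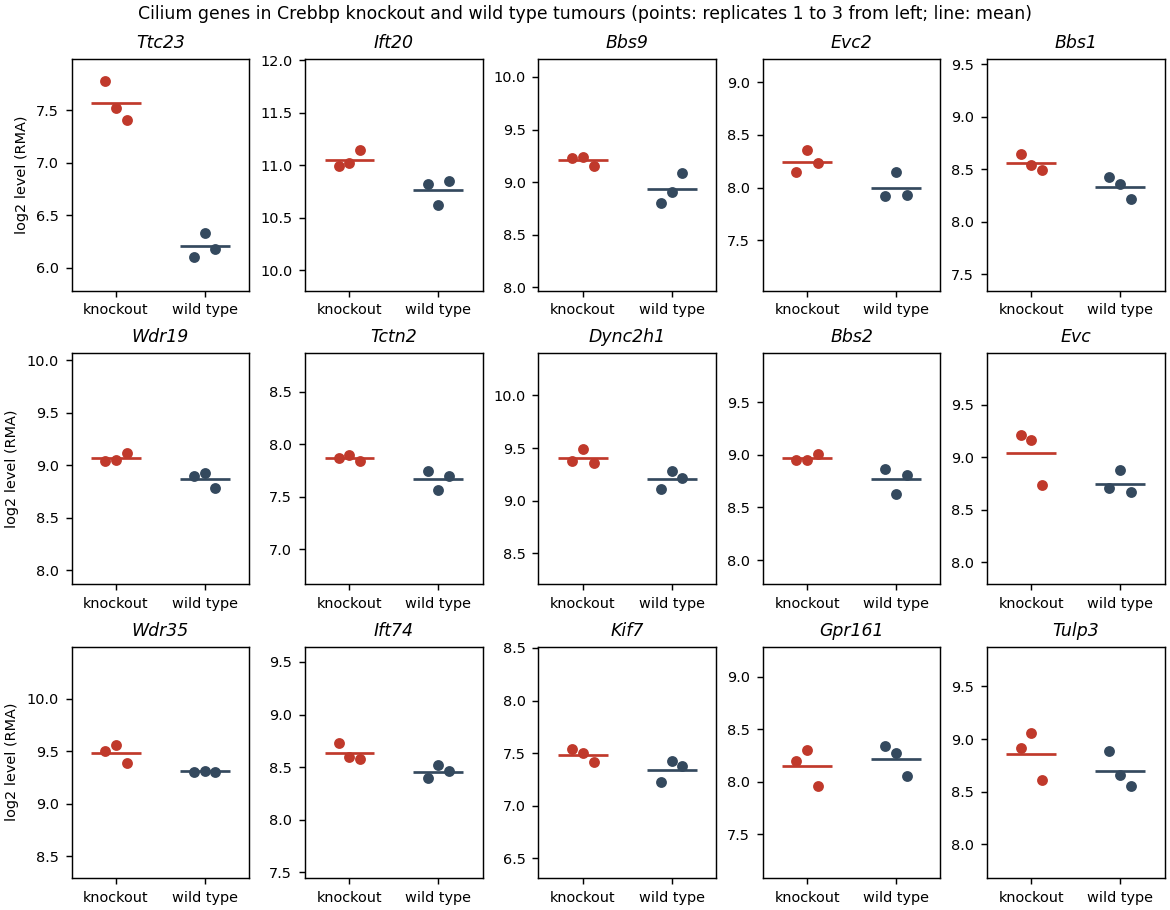
Log2 level (RMA) of 15 cilium genes in each tumour, knockout at left and wild type at right in every panel, with a line at the mean of 3 tumours and an axis of the same length in all panels. Ttc23 is the panel in which the groups are far apart, with means of 7.56 and 6.21. In the others the means differ by at most 0.29.

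Ttc23 lies on chromosome 7, and its measured protein-coding neighbours, looked at because of its rise, did not pass the test. Lrrc28, next to it on one side, had mean levels of 8.37 in knockout and 8.14 in wild type tumours (log2 change 0.24, SE 0.09, limma adjusted p = 0.319). Synm, next to it on the other side, had means of 7.28 and 7.36 (log2 change -0.07, SE 0.09, adjusted p = 0.783). Mef2a and Igf1r, the next in line, had log2 changes of 0.22 and -0.03. Lrrc28 and Mef2a, which lie on the same side, were higher in every knockout tumour, without overlap (limma adjusted p = 0.351 for Mef2a). Both have an unadjusted limma p under 0.05. Of all genes, 10.2% were higher without overlap and 7.24% had such a p in the upward direction. Whether the region as a whole differed was not tested. Synm and Igf1r overlapped between the groups.

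Some cell type markers also differed between the groups, but by mean level every list except that of granule progenitors and tumour cells overlapped. In bulk tissue fewer cells of a type and less RNA per cell cannot be told apart. In the 10 marker lists 0 genes passed the test, and counts at an unadjusted p under 0.05 are given against 7.24% of all genes in the upward and 6.51% in the downward direction. Of 13 markers of granule neuron progenitors and Hedgehog tumour cells, 8 were in the downward direction at that level (61.5%). Another 2 were in the upward direction at that level (15.4%), the Hedgehog genes Ptch1 and Gli1. The groups did not overlap in 10 of the 13 (76.9%, against 19.6% of all genes), 8 lower and 2 higher in knockout tumours. The mean log2 level of the 13 was 11.02 to 11.19 in knockout and 11.23 to 11.40 in wild type tumours. By this mean the list separated the groups, as Ttc23 did. Of 9 measured markers (11 listed) of Purkinje cells and inhibitory neurons, all 9 had positive log2 changes and 6 reached that level (66.7%), with mean levels of 8.17, 7.30 and 8.14 in knockout tumours and 6.57, 7.09 and 7.41 in wild type tumours.

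Microglia and macrophage markers had 6 of 10 at that level in the downward direction (60%), with averages of 9.43 to 9.75 in knockout and 9.75 to 9.98 in wild type tumours. Oligodendrocyte lineage markers had 4 of 8 (50%) in the downward direction, Sox10 among them (log2 change -0.69), with averages of 8.74 to 8.93 in knockout and 8.81 to 9.40 in wild type tumours. Granule neuron markers went both ways, Gabra6 and Cbln3 with log2 changes of 2.72 (SE 0.93) and 2.29 (SE 0.65) and Neurod1 with -1.13 (SE 0.23). Gabra6 and Cbln3 overlapped between the groups, with knockout replicate 2 below wild type replicate 3, and Neurod1 did not overlap. The list averaged 9.42 to 10.23 in knockout and 9.23 to 9.58 in wild type tumours. Fibroblast and meningeal markers had positive changes in 6 of 7 (85.7%, against 50.9% of all genes). At that level were 2 in the upward direction (28.6%), Igf2 among them (log2 change 1.39), and 1 in the downward direction (14.3%), Foxc1 (-0.45). The list averaged 8.29 to 8.65 in knockout and 7.93 to 8.32 in wild type tumours. Endothelial and pericyte markers had 3 of 9 (33.3%) and astrocyte and Bergmann glia markers 2 of 10 (20%) at that level in the upward direction. The astrocyte list averaged 10.27 to 10.41 in knockout and 9.80 to 10.42 in wild type tumours. The part of these lists in the rise of Ttc23 was not tested.

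**Figure D3:**
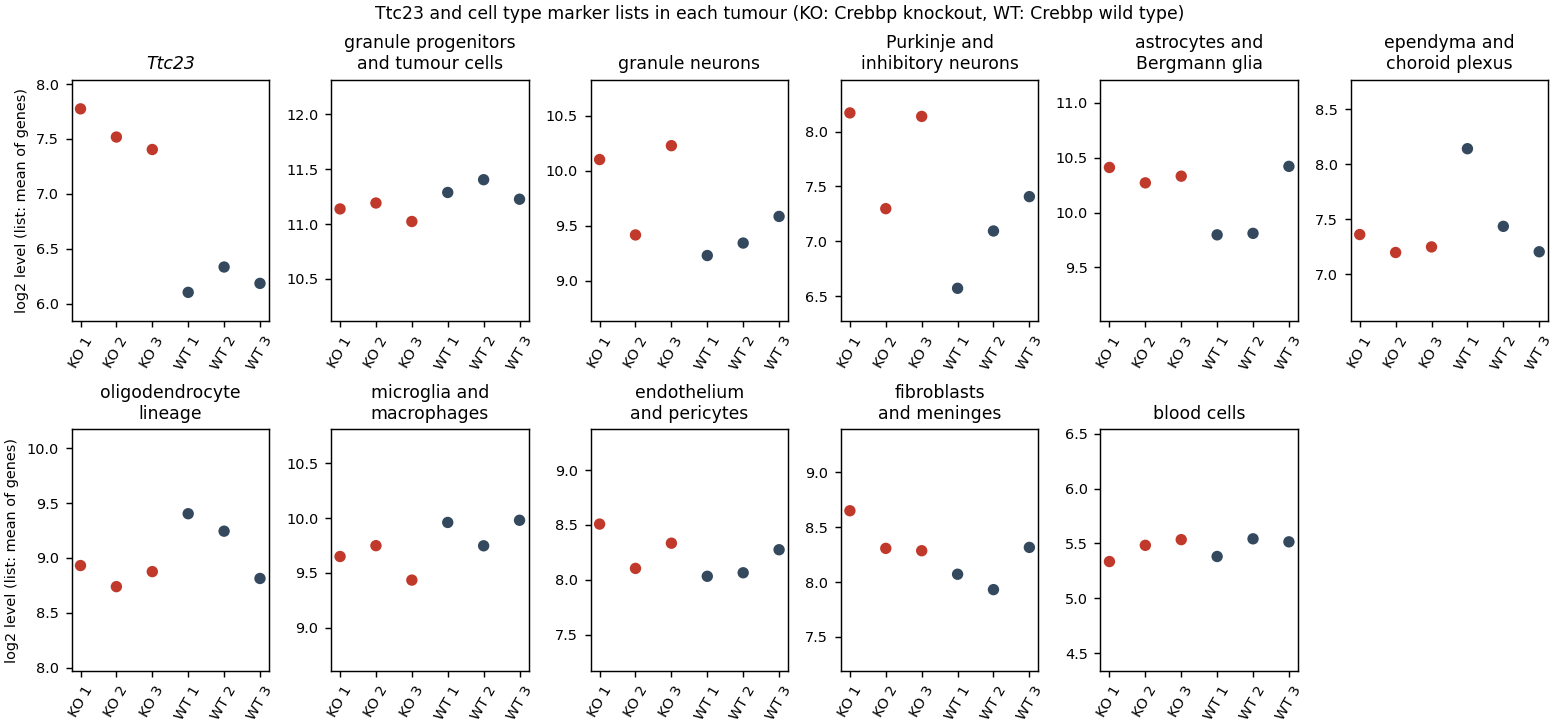
Log2 level of Ttc23 and mean log2 level of all 10 marker lists in each of the 3 knockout (KO, red) and 3 wild type (WT, grey) tumours, with axes of the same length. Ttc23 and the list of granule progenitors and tumour cells separate the groups, the list in the other direction and by a smaller margin, and in the other lists knockout and wild type values overlap, by 0.0013 in that of microglia.

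Cells with many motile cilia are another source of cilium transcripts. Of 23 measured genes of motile cilia 0 passed the test. An unadjusted limma p under 0.05 was found for 2 in the upward direction (8.7%, against 7.24% of all genes) and 0 in the downward direction. The mean log2 level of the 23 was 6.43 to 6.51 in knockout and 6.43 to 6.49 in wild type tumours. Dnah11 and Spag6, the nearest to the threshold, had log2 changes of 0.39 (SE 0.13) and 0.29 (SE 0.11). Foxj1, the master regulator of motile cilia, had means of 7.34 and 7.38 (log2 change -0.04, SE 0.11). Ttr, the main product of the choroid plexus, reached 13.52 and 10.80 in wild type replicates 1 and 2, against 8.10 in wild type replicate 3 and 8.71, 8.49 and 7.92 in the knockout tumours. The list of 9 ependymal and choroid plexus markers averaged 7.20 to 7.36 in knockout and 7.20 to 8.14 in wild type tumours, its marker Tmem212 had means of 5.13 and 4.80, and its part in the results was not tested.

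The other EvC zone genes did not pass the test. Evc2, a membrane protein that binds Smoothened together with Evc, had log2 levels of 8.14, 8.35 and 8.24 in knockout tumours and 7.92, 8.14 and 7.93 in wild type tumours. The groups touched at 8.14, and the log2 change was 0.25 (SE 0.11, 95% interval 0.00 to 0.49, limma adjusted p = 0.351). Its partner Evc had levels of 9.21, 9.17 and 8.74 in knockout and 8.70, 8.88 and 8.66 in wild type tumours. Knockout replicate 3 lay within the wild type range, so the groups overlapped (log2 change 0.29, SE 0.14, interval -0.04 to 0.62, adjusted p = 0.424). Efcab7 and Iqce, which anchor the Evc-Evc2 complex, had log2 changes of 0.06 (SE 0.18) and -0.05 (SE 0.13). Efcab7 was spread widely in wild type tumours, from 7.70 to 8.43.

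Evc and Evc2 are neighbours on chromosome 5 whose starts lie head to head, 1597 bases apart in the RefSeq windows. Their upstream sequences are shown because the pair had log2 changes of like size. They held none of the 3 motifs searched, which says only that these letters are not in these windows (Evc, chr5:37336882-37337131, minus strand; Evc2, chr5:37338228-37338477, plus strand).
Evc: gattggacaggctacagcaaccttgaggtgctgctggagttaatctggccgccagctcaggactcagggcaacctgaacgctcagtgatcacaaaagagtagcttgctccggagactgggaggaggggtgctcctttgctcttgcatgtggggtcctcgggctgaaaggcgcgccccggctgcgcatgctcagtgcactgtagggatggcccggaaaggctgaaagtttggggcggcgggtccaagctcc
Evc2: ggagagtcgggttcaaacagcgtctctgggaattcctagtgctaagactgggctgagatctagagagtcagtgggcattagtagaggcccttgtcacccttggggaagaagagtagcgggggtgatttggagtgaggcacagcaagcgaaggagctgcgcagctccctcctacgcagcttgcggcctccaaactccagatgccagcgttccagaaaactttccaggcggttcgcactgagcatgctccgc

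Genes that carry Hedgehog components into or out of the cilium did not pass the test. Kif7, the kinesin that organises the ciliary tip where GLI proteins gather, had log2 levels of 7.54, 7.50 and 7.42 in knockout and 7.23, 7.42 and 7.38 in wild type tumours. The groups overlapped by a small margin (log2 change 0.14, SE 0.09, interval -0.08 to 0.36, limma adjusted p = 0.561). A second Kif7 feature, with means of 6.44 in knockout and 6.50 in wild type tumours, gave a change of the other sign (-0.06, SE 0.10). Gpr161, the ciliary receptor that holds Hedgehog signalling down through cAMP, had levels of 8.20, 8.30 and 7.96 in knockout and 8.34, 8.27 and 8.05 in wild type tumours (log2 change -0.07, SE 0.12, interval -0.36 to 0.22). Tulp3, the adaptor that brings Gpr161 into the cilium with IFT-A, had levels of 8.91, 9.06 and 8.61 in knockout and 8.88, 8.66 and 8.56 in wild type tumours (log2 change 0.16, SE 0.14, interval -0.17 to 0.49). In both genes the third replicate of each group was its lowest.

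Of the 17 IFT genes, 0 passed the test, and the log2 changes ran from -0.17 to 0.29. Positive changes were found in 10 (58.8%, against 50.9% of all genes) and negative ones in 7. The groups did not overlap in 6 (35.3%, against 19.6% of all genes), 5 higher and 1 lower in knockout tumours. These shares were not tested. Ift20, the IFT-B subunit that also sits at the Golgi and sorts membrane cargo, had levels of 10.996, 11.019 and 11.149 in knockout and 10.824, 10.623 and 10.848 in wild type tumours. All knockout values were the higher ones (log2 change 0.29, SE 0.10, interval 0.06 to 0.52, limma adjusted p = 0.283). Ift74, which with Ift81 binds the tubulin that trains deliver, had levels of 8.73, 8.60 and 8.57 in knockout and 8.39, 8.52 and 8.46 in wild type tumours (log2 change 0.18, SE 0.09, adjusted p = 0.442). Ift81 itself had a log2 change of 0.05 (SE 0.09).

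Ift57, with both motifs in its promoter, was the IFT gene whose groups stood apart in the downward direction. Its levels were 9.54, 9.49 and 9.56 in knockout and 9.66, 9.81 and 9.62 in wild type tumours, and the change did not pass the test (-0.17, SE 0.09, limma adjusted p = 0.472). Ift88, a core IFT-B subunit whose loss removes cilia in mice, had means of 9.11 and 9.06 (log2 change 0.05, interval -0.14 to 0.25). Ift172, a peripheral IFT-B subunit, had a log2 change of 0.10 (SE 0.09), with knockout values all higher. Ift27, the small GTPase that lets the BBSome leave the cilium, varied most among knockout tumours, at 10.23, 9.62 and 9.34, against 9.83, 9.72 and 9.79 in wild type tumours. Its interval, -0.53 to 0.43, was correspondingly wide.

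Among IFT-A genes, Wdr19 and Wdr35 were higher in every knockout tumour, and the others overlapped. That is 2 of 6 genes (33.3%, against 10.2% of all genes), a share that was not tested. Wdr19, a core subunit with an X-box 34 to 21 bases before its start, had levels of 9.04, 9.05 and 9.11 in knockout and 8.90, 8.92 and 8.79 in wild type tumours (log2 change 0.20, SE 0.09, limma adjusted p = 0.368). Wdr35 had levels of 9.50, 9.56 and 9.39 in knockout and 9.30, 9.32 and 9.30 in wild type tumours, with the wild type values nearly equal (log2 change 0.17, SE 0.09, adjusted p = 0.433). Ttc21b, which in mice restrains Hedgehog signalling, had a log2 change of -0.13 (SE 0.09), and Ift140, Ift122 and Ift43 ones of -0.06, 0.05 and -0.12. Of the motors, Dync2h1, the heavy chain of dynein-2, had levels of 9.37, 9.49 and 9.36 in knockout and 9.11, 9.28 and 9.22 in wild type tumours, again without overlap (log2 change 0.20, SE 0.09, adjusted p = 0.386). The kinesin-2 subunits Kif3a and Kif3b had changes of 0.03 (interval -0.17 to 0.23) and -0.02 (interval -0.20 to 0.17).

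In the BBSome, the coat that lifts receptors out of the cilium, 0 of 7 genes passed the test. Positive log2 changes were found in 6 of the 7 (85.7%, against 50.9% of all genes). Bbs9 had levels of 9.23, 9.24 and 9.15 in knockout and 8.81, 8.90 and 9.09 in wild type tumours (log2 change 0.27, SE 0.10, limma adjusted p = 0.301). Bbs1, with an X-box just after its start, had levels of 8.65, 8.54 and 8.49 in knockout and 8.42, 8.36 and 8.22 in wild type tumours (log2 change 0.22, SE 0.10, adjusted p = 0.361). Bbs2 had levels of 8.95, 8.95 and 9.01 in knockout and 8.87, 8.63 and 8.81 in wild type tumours (log2 change 0.20, SE 0.10, adjusted p = 0.413). In these 3 genes and in Bbs4 (log2 change 0.19) every knockout tumour lay above every wild type tumour. That is 4 of 7 genes (57.1%, against 10.2% of all genes), and these shares were not tested. Ttc8, which is also BBS8, ran the other way (-0.24, SE 0.14), with overlap, and Bbs5 had a change of 0.00 (SE 0.10). The chaperonin-like genes that fold the complex, Mkks, Bbs10 and Bbs12, had changes of 0.09, -0.06 and 0.02.

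In the transition zone, 0 of 7 genes passed the test, with log2 changes from -0.07 to 0.20. Tctn2, a tectonic of the membrane barrier with an X-box 62 to 49 bases before its start, had levels of 7.87, 7.90 and 7.84 in knockout and 7.75, 7.57 and 7.70 in wild type tumours. It was the one transition zone gene without overlap, 1 of 7 (14.3%, against 19.6% of all genes). Its log2 change was 0.20 (SE 0.09, limma adjusted p = 0.38). Its upstream sequence is shown with the X-box in capitals (chr5:124598499-124598748, plus strand).
Tctn2: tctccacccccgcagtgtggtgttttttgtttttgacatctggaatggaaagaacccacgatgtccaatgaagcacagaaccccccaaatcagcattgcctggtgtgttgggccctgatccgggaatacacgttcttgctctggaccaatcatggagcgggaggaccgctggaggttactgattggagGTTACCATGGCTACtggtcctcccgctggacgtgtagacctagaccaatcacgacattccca

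The scaffold genes Cep290 and Rpgrip1l, which link the membrane to the microtubules of the transition zone, had log2 changes of 0.07 (SE 0.13) and 0.07 (SE 0.09). Tmem67 had a change of 0.12 (SE 0.14), with wild type values from 9.05 to 9.53. Tmem231, Mks1 and B9d1, other parts of the barrier, had changes of 0.01, -0.03 and -0.07. The intervals of all 7 genes lay within 0.5 of 0 on the log2 scale.

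**Figure D4:**
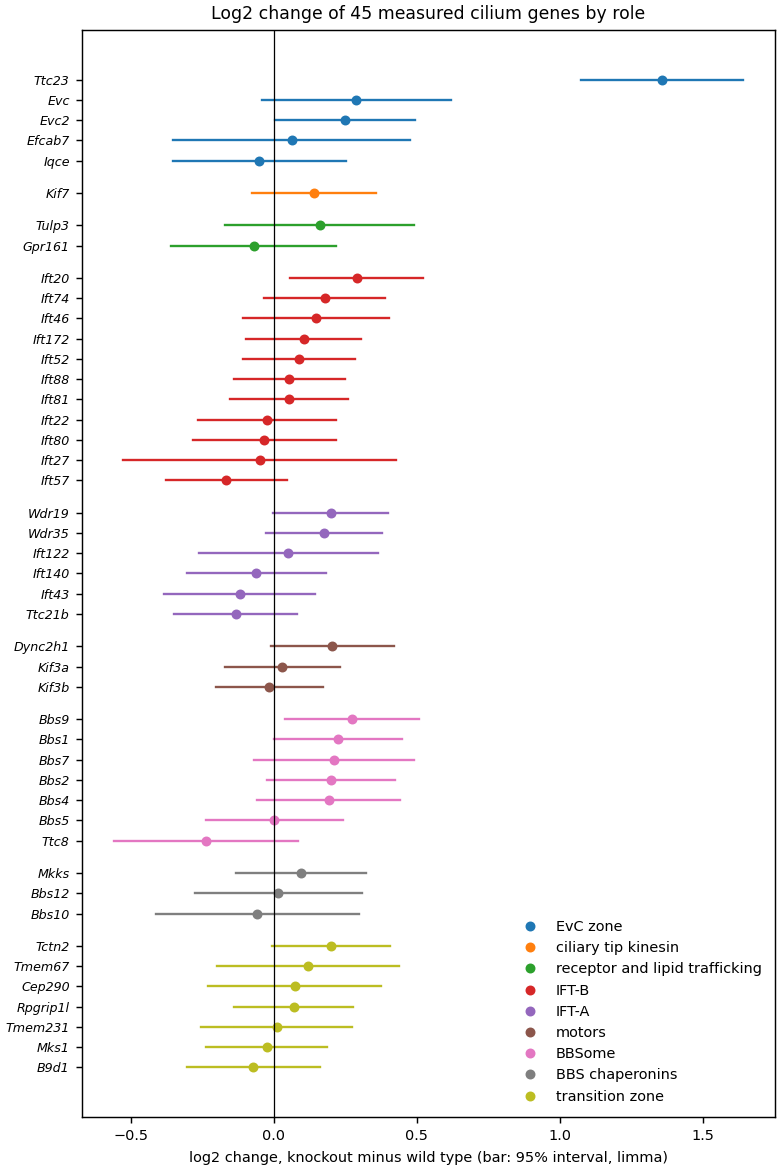
Log2 change, knockout minus wild type, of the 45 measured cilium genes by role, with 95% intervals from limma as bars. Ttc23 lies at 1.36, and the other 44 genes lie between -0.24 and 0.29.

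Over the 45 genes the median log2 change was 0.07, against 0.00 over all genes, and 31 of 45 changes were positive (68.9%), against 50.9% of all genes. The knockout values lay above all wild type values in 12 genes (26.7%, against 10.2% of all genes) and below them in 1, Ift57 (9.43% of all genes), which makes 28.9% without overlap against 19.6% of all genes. An unadjusted p under 0.05 was found for 5 genes in the upward direction, Ttc23, Ift20, Bbs9, Evc2 and Bbs1 (11.1%, against 7.24%), and for 0 in the downward direction (6.51% of all genes). In either direction this was 11.1% against 13.8% of all genes. These shares describe the list and were not tested, and the genes in it are not independent. The median deviation of the 44 genes other than Ttc23 from their own means ran from -0.01 to 0.08 over the knockout tumours. Over the wild type tumours it ran from -0.06 to -0.02, so by this measure the groups did not overlap, by a margin of 0.0032. By this measure the microglia list did not overlap either (-0.35 to -0.06 in knockout, -0.02 to 0.24 in wild type tumours). By mean log2 level, the measure used for the marker lists, the 44 genes overlapped between the groups. Their mean levels were 8.86 to 8.96 in knockout and 8.82 to 8.89 in wild type tumours. With array medians subtracted the median log2 change of the 45 genes was 0.040, against -0.025 over all genes. It was 0.038 without wild type replicate 1 and 0.11 without knockout replicate 3. For 39 of 45 genes (86.7%, against 70.2% of all genes) the 95% interval lay within 0.5 of 0. The 6 exceptions were Ttc23, Evc, Ift20, Bbs9, Ift27 and Ttc8.

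**Figure D5:**
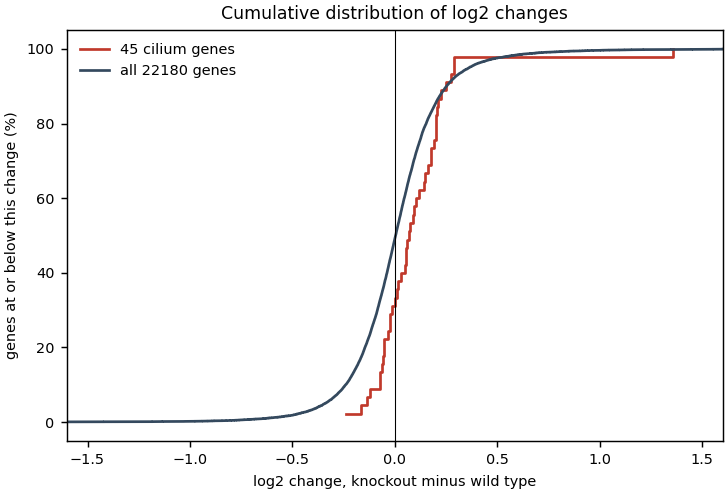
Cumulative share (%) of genes at or below each log2 change, knockout minus wild type, for the 45 cilium genes (red) and all 22180 genes (grey), with the horizontal axis limited to 1.6 on either side of 0. The red curve runs a little to the right of the grey one, with medians of 0.07 and 0.00, and its last step is Ttc23.

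The 9 measured genes with an X-box had a median log2 change of 0.19 (range -0.17 to 0.22, 6 positive, 0 past the test). The 29 measured genes whose windows held none had a median of 0.07 (range -0.24 to 0.29, 20 positive, 0 past the test). Ttc23 had no promoter window and is in neither set. The sets were not tested against each other. Of the RFX factors, Rfx4 had levels of 7.98, 7.68 and 7.67 in knockout and 7.16, 7.23 and 7.47 in wild type tumours, without overlap (log2 change 0.49, SE 0.13, limma adjusted p = 0.184). Rfx1 and Rfx7 were lower in every knockout tumour, also without overlap (log2 changes -0.21 and -0.22, limma adjusted p = 0.346 and 0.335). Rfx2 and Rfx3 overlapped, with log2 changes of -0.03 and 0.02, and none of the 5 passed the test. Groups without overlap were found in 19.6% of all genes, and the RFX factors were looked at after the values were seen. Their part in the levels of the cilium genes was not tested.

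Further cilium genes were taken from lists of the same pathways, 99 of 120 of them measured. One passed the test, in the upward direction, where 0.126% of all genes did. Of the 99, 48 lay above 0 (48.5%, against 50.9% of all genes), and the median log2 change was -0.02. It was Gli3, the GLI factor that is cut to a repressor at the cilium, at 8.27, 7.46 and 7.68 in knockout and 6.08, 6.39 and 6.37 in wild type tumours. Its groups were apart (log2 change 1.53, SE 0.20, limma adjusted p = 0.042), and the call was lost without knockout replicate 1 (adjusted p = 0.055), knockout replicate 3 (0.145), wild type replicate 1 (0.153), wild type replicate 2 (0.132) or wild type replicate 3 (0.0563), and with the replicate number as a block (0.124). The change of Gli3 stayed between 1.29 and 1.70 on leaving out each array. The other Hedgehog genes that act in the cilium did not pass. Smo and Sufu overlapped between the groups, with log2 changes of -0.03 and -0.04. Ptch1 and Gli1 were higher in every knockout tumour (0.33 and 0.30) and Gli2 lower (-0.24), without overlap. In the list of Hedgehog genes, Gli3 included, 10 of 21 measured genes did not overlap (47.6%, against 19.6% of all genes). Of these, 6 were higher and 4 lower in knockout tumours, and the shares were not tested. Whether the Smo feature also reads the SmoM2 transcript was not tested.

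Adcy5, an adenylyl cyclase, came closest to the threshold from the other side, at 8.54, 8.31 and 8.44 in knockout and 9.02, 9.12 and 9.11 in wild type tumours (log2 change -0.65, SE 0.10, limma adjusted p = 0.0562). Mchr1, a receptor of neuronal cilia, had a log2 change of 0.22 (SE 0.12). Other dynein-2 genes did not run one way. Dync2li1 differed by 0.42 on the log2 scale (SE 0.11, adjusted p = 0.184) and Wdr60 by 0.32 (SE 0.11, adjusted p = 0.263), both without overlap, while Tctex1d2, Wdr34 and Dynll1 overlapped, with log2 changes of 0.16, -0.02 and -0.06. Tub, a relative of Tulp3 that traffics receptors in neurons, had levels of 8.91, 9.20 and 9.15 in knockout and 9.72, 9.70 and 9.46 in wild type tumours (log2 change -0.54, SE 0.12, adjusted p = 0.148). For Rabl2, a GTPase that binds IFT-B, the log2 change was 0.26 (SE 0.10), and for the beta-arrestin gene Arrb2 it was -0.44 (SE 0.10). For Kif2a, a kinesin that takes microtubules apart, it was -0.29 (SE 0.09, adjusted p = 0.236). Of the 26 transition zone and basal body genes outside the main list 0 passed, and Tctn3 and Tmem237 were nearest to it, at 0.20 and -0.15.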

How the data were processed

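The authors deposited log2 expression values. The submitters' processing notes name RMA and the oligo package, and no version is given in the sources used here. The method subtracts background, brings the arrays to one distribution and combines the probes of a feature. RMA compresses changes of dim features and removes any change shared by most genes. Array medians were 6.91 to 7.00, and there are no depths or detection calls, so the number of arrays limits the precision.

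Of 41345 features, 23521 carried 1 gene symbol, 1814 several and 16010 were unnamed here. Symbols came from the platform annotation, checked by gene identifier against RefSeq GRCm38.p6 (99.2% matched). No build is stated for the array, so printed coordinates are those of the RefSeq promoter windows. For the 1082 genes with several features the brightest was used, with no filter. Samples were grouped by title.

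The fit, over all 22180 genes, used lmFit and plain eBayes of limma 3.58.1 (R 4.3.3), with two-sided tests. P-values were adjusted across all of them by Benjamini-Hochberg, and 0.05 was the threshold. On simulated arrays with independent noise, the mean estimated change was checked against the change put in. That check set no condition on the calls. Genes were described in full if past the threshold, among the 12 smallest p-values of the list, or chosen by name (Kif7, Gpr161, Tulp3, Evc, Evc2), and other genes by role. Of further cilium genes, those past the threshold, the 2 with the smallest p in each list and the core Hedgehog genes were named, and the neighbours of Ttc23 and the RFX factors were added after the values were seen. The cilium genes and all lists were chosen with earlier results of these data known. Replicate numbers 1 to 3 recur in both groups, but deviations of same-numbered arrays correlated at -0.03, 0.05 and 0.10, so the numbers were not taken as pairs. Alternatives covered scaling, filters, variance model, weights, features, sex chromosomes, a block and leaving out each array.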

Additional observations from a re-analysis of the deposited data

How the results depend on the processing

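The log2 change of Ttc23 kept its direction in all 16 alternatives that tested it, between 1.25 and 1.44, and passed in 13, with adjusted p from 0.00508 to 0.0738. Without the dimmest 50% of genes it was not tested, so the number of cilium genes past the threshold was 0 of 42, and with a replicate block it was also 0. Leaving out each array gave 0 to 1. The number of cilium genes with an unadjusted p under 0.05 was 3 after subtracting array medians, 8 without the dimmest 25% of genes and 2 to 5 on leaving out each array. Their median log2 change was 0.038 to 0.11 on leaving out each array and 0.040 after subtracting array medians, where that of all genes was -0.025. The number of further cilium genes past the threshold was 2, Gli3 and Adcy5, after subtracting array medians, without the dimmest 25% of genes, with a variance trend, with or without robust fitting, and at an adjusted p of 0.1. It was 0 with a replicate block and 0 to 1 on leaving out each array. Without the dimmest 50% of genes it was 1, Adcy5, and Gli3 was not tested. All genes past the threshold numbered 46 with the settings of the report, 77 without the dimmest 25% of genes, 107 with a variance trend, 137 with a robust one, 131 at an adjusted p of 0.1, 12 with a replicate block, and 4 to 128 on leaving out each array. The same numbers pair no samples as far as the labels say, so the block is given as a description. The other 14 genes described in full did not pass in any alternative fit, over 237 comparisons, each of 1 gene in 1 fit. The smallest limma adjusted p among them was 0.155. Gpr161 turned sign once, from a range of -0.15 to 0.027 on leaving out each array. The causes of these shifts were not tested.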
